A study of Mus musculus with 12 samples.

Results

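The enzymes described here are 9 transcripts of the metabolic blood-brain barrier, the layer of enzymes by which brain capillaries break down blood-borne amines, peptides and other small molecules. They were listed by name: Ddc and Maoa for amines, Alpl, Ggt1 and Car4 as enzymes anchored at the cell surface, and the peptidases Enpep, Anpep, Ace and Dpp4. All 9 were found among the 15204 named genes on the arrays. Ace had 2 rows, which are different transcript records of the gene, and the brighter row was used as the rule required.

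A transporter barrier alone does not keep all neuroactive molecules out of the brain, because some of them enter endothelial cells. Aromatic amino acid decarboxylase, encoded by Ddc, turns L-DOPA that has entered the endothelium into dopamine, and monoamine oxidase, encoded by Maoa, degrades that amine at the outer mitochondrial membrane. Enzymes at the cell surface work on peptides, phosphate esters, glutathione conjugates and bicarbonate at the vessel wall, and staining for alkaline phosphatase or gamma-glutamyl transferase is a classical mark of brain capillaries. Several of these genes are not restricted to endothelium: aminopeptidase N (Anpep, CD13) and aminopeptidase A (Enpep) are also known from pericytes, the contractile cells wrapped around capillaries, and aminopeptidase N from myeloid cells.

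Total RNA of mouse brain endothelial cells was measured on 12 microarrays, 3 for each of 4 sources. The non-cultured cells had been purified with magnetic beads that bind PECAM1 and were not kept in culture. The single-cultured cells were primary brain microvascular endothelial cells grown for 5 days on transwell filters, and the co-cultured cells were grown likewise with mouse glia, themselves cultured for 3 weeks, in the lower well without contact. The fourth source, b.End5, is a line of endothelioma cells made from mouse brain endothelium with the polyoma middle T oncogene. The labels give no strain, age or genotype. They mention PECAM1 sorting for the non-cultured cells alone, so sorting and culture cannot be told apart in any comparison with that group, and they do not say whether replicates came from separate preparations, so p-values measure the spread between these arrays, which may be technical.

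Values are the authors' log2 values, on which 1 unit is a 2-fold difference, and array medians lay between 7.21 and 7.40. A level below which a gene could not be told from no target was set on each array at the 95th percentile of 27 bacterial control rows. It lay between 4.01 and 4.46, and 79.4% to 82.9% of genes lay above it. The 12 endothelial markers checked were above this level in every source, with array means of 11.6 to 12.7. Replicate 2 of b.End5 stood apart from the other b.End5 arrays, with 1106 and 1193 genes over 1 log2 unit away from them against 42 such genes between replicates 1 and 3. Results that rest on it are given with and without it.

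The promoter windows of the 3 enzymes that lost most transcript in culture are shown, so that the letters around their starts can be read beside the values. They come from RefSeq (GRCm38.p6), run from 250 bases before to 50 bases after an annotated start, and are written 5′ to 3′ on the gene's strand. The array does not tell which start was used, and both windows of Ddc are shown. Capitals mark matches, on either strand, to 7 short motifs: CTTTGA (TCF/LEF), CCACNCCC (KLF), AACAAT (SOX), TGANTCA (AP-1), CCGGAA (ETS), GGGCGG (GC box) and TATAAA (the TATA box).
Ddc, upstream start, chr11:11898095-11898394, minus strand: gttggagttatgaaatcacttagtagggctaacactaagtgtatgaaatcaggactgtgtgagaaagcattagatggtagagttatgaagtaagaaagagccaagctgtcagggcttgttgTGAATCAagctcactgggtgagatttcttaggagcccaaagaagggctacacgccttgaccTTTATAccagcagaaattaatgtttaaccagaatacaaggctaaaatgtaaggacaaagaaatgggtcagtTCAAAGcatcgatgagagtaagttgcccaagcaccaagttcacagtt
Ddc, downstream start, chr11:11890359-11890658, minus strand: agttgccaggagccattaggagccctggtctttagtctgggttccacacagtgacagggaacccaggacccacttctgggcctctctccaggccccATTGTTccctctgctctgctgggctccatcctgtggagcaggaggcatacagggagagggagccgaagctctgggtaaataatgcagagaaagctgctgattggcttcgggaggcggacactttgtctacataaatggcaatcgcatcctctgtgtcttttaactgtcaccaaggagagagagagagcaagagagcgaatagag
Alpl, upstream start, chr4:137796335-137796634, minus strand: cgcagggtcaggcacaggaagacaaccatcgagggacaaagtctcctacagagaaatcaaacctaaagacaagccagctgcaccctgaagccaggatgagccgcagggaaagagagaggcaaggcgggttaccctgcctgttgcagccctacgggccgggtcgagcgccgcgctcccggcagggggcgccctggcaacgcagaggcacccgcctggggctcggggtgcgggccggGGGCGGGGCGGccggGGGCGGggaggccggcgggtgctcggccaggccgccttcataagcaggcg
Car4, chr11:84957504-84957803, plus strand: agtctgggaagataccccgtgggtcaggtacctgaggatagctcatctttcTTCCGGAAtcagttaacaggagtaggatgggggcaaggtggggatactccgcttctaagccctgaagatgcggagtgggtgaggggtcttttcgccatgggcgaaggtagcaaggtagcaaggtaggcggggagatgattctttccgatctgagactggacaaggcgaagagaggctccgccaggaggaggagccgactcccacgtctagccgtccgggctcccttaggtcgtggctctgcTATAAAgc

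A TATA match was found in a window of each of the 3 genes, for Alpl in that of its downstream start, which is not printed. Counted from the annotated start, these matches began at base -68 (Ddc), -192 (Alpl) and 42 (Car4, after the start). The upstream Ddc window held 1 TCF/LEF, 1 AP-1 and 1 TATA match, its downstream window 1 SOX match, the Alpl window 3 GC boxes of which 2 overlapped by 1 base, and the Car4 window 2 overlapping ETS matches and 1 TATA match. The 15 windows of the 9 genes held a TCF/LEF match in 4 cases, a GC box in 6 and a TATA match in 7. A KLF match was in 1 of them, SOX in 2, AP-1 in 1 and ETS in 1. Among 32851 mouse windows of the same length the shares were 16.0%, 35.7% and 13.6%, and for KLF, SOX, AP-1 and ETS 17.6%, 10.7%, 7.81% and 14.9%. A match describes letters and is not a binding site.

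Most of these enzymes were lower in every source kept in vitro than in the freshly purified cells. Here a gene is called lower or higher at a limma adjusted p under 0.05 together with at least a 2-fold difference. In single-cultured cells 5 of the 9 were called lower than in non-cultured cells (Ddc, Car4, Alpl, Dpp4 and Maoa) and 0 higher, where 5.82% of all genes were called lower and 7.18% higher. The same 5 were called lower in co-cultured cells, where 6.20% of all genes were, with 0 of the 9 and 9.10% of all genes called higher. In b.End5 these 5 and Ace were called lower, 6 of 9, against 9.06% of all genes, with 0 of the 9 and 9.10% of all genes called higher. The 3 comparisons share the non-cultured arrays and are therefore not separate evidence. Arrays of the compared groups did not overlap for 7, 6 and 8 of the 9 enzymes, and for 45.3%, 51.1% and 49.2% of all genes.

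**Figure D1:**
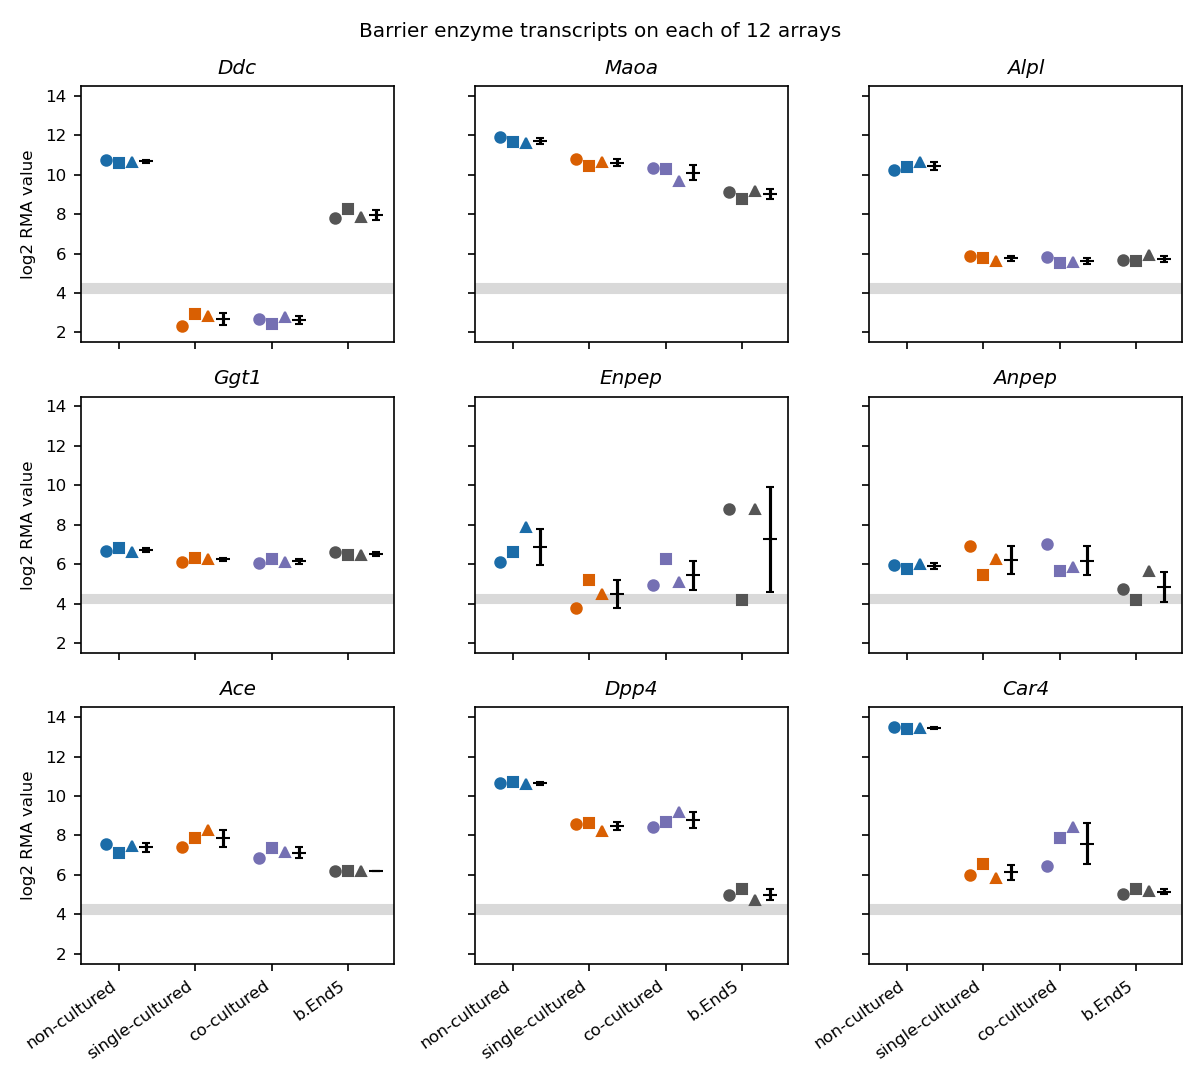
Log2 RMA value (vertical axis) of the 9 enzyme transcripts on each array, by source (horizontal axis). Circles, squares and triangles are replicates 1, 2 and 3, black bars give the mean and SD of 3 arrays, and the grey band is the range of the no-target level (4.01 to 4.46). Ddc, Alpl, Dpp4 and Car4 are highest on the non-cultured arrays. Ddc is also well above the band in b.End5, and Dpp4 stays above 8 in both primary cultures. Car4 reaches 7.87 and 8.43 on co-cultured replicates 2 and 3. Enpep is high on b.End5 replicates 1 and 3 and inside the band on replicate 2.

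Ddc was detected in non-cultured cells and b.End5 but not in the primary cultures. Its non-cultured values were 10.8, 10.6 and 10.7, its single-cultured values 2.34, 2.92 and 2.83, and its co-cultured values 2.67, 2.41 and 2.80. All arrays of the primary cultures were thus at or under the no-target level and all non-cultured arrays far above it. As a bound, Ddc was at least 83.4-fold lower in single-cultured cells (limma adjusted p = 3.36e-10) and at least 96.7-fold lower in co-cultured cells (adjusted p = 3.04e-10). In bulk RNA, fewer cells that make a transcript and less of it per cell cannot be told apart, which holds for every fall described here. The b.End5 line differed from the primary cultures in this gene: its arrays read 7.79, 8.27 and 7.88, between the other sources with no overlap. Ddc in b.End5 was 6.48-fold lower than in non-cultured cells (log2 difference -2.70, SE 0.18, adjusted p = 2.55e-07), and at least 12.9-fold and 14.9-fold higher than in single-cultured and co-cultured cells. With all arrays Ddc was the only one of the 9 called higher in b.End5 than in the primary cultures. Of all genes, 6.25% and 5.10% were called higher there. Without b.End5 replicate 2, Enpep was also called higher in b.End5 than in single-cultured (4.30) and co-cultured cells (3.36). Single-cultured and co-cultured cells cannot be ordered for Ddc, since both lay at or under the no-target level.

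Neurons that make monoamines also use Ddc, so neuronal markers are given beside it. Summed over 10 neuronal markers, the log2 level was 8.82 to 9.24 in non-cultured, 7.79 to 8.35 in single-cultured, 8.26 to 9.62 in co-cultured and 9.72 to 13.0 in b.End5 cells. The 13.0 is b.End5 replicate 2, and the other b.End5 arrays were at 9.72 and 9.89. Single genes carried much of these sums: Nefl, a neurofilament, had a mean of 10.6 in b.End5 and 12.97 on its highest array, and Tubb3, a neuronal tubulin, a mean of 8.47 in co-cultured cells. Stmn2 had a mean of 7.91 in non-cultured cells and of 5.38, 6.21 and 6.16 in single-cultured, co-cultured and b.End5 cells. Syt1 and Rbfox3 were at or under the no-target level on all non-cultured arrays, and the catecholamine enzyme Th averaged 4.42 there, near that level. Snap25 had a mean of 6.78 in non-cultured cells and was at or under the level on every array of the other sources. The part of neuronal RNA in the Ddc difference was not tested.

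Maoa fell in smaller steps. Its values were 11.9, 11.7 and 11.6 in non-cultured cells, 10.8, 10.4 and 10.6 in single-cultured cells, 10.3, 10.3 and 9.66 in co-cultured cells, and 9.13, 8.75 and 9.20 in b.End5. No array of any source overlapped with those of another, and the order was non-cultured, single-cultured, co-cultured, b.End5. Relative to non-cultured cells it fell by 1.11 on the log2 scale in single-cultured cells (SE 0.19, adjusted p = 0.0011), by 1.63 in co-cultured cells (adjusted p = 5.74e-05) and by 2.70 in b.End5 (adjusted p = 5.18e-07). The neighbours single-cultured and co-cultured did not pass (-0.51, 95% interval -0.94 to -0.08, adjusted p = 0.256). Maoa was called lower in b.End5 than in single-cultured cells (-1.59, adjusted p = 7.71e-05) and than in co-cultured cells (-1.08, adjusted p = 0.00153). The last call rested on the 2-fold minimum: the difference was -0.96, -0.97 and -0.94 without co-cultured replicate 1, co-cultured replicate 2 or b.End5 replicate 2, with adjusted p of 0.00781, 0.00878 and 0.00425.

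Other genes of amine handling were called in either direction at a share near that of all genes, but in the primary cultures all calls against non-cultured cells were falls. Of 23 measured genes for amine synthesis, breakdown and transport, 4 fell and 0 rose in single-cultured cells, 4 fell and 0 rose in co-cultured cells, and 3 fell and 1 rose in b.End5, each against non-cultured cells. That is 17.4% of the list each time, against 13.0%, 15.3% and 18.2% of all genes called in either direction. In single-cultured and co-cultured cells 5.82% and 6.20% of all genes were called lower, and 7.18% and 9.10% higher. The co-cultured count of 4 became 7 without co-cultured replicate 2. The medians of the list were -0.07, -0.17 and 0.02, against 0.00, -0.04 and 0.08 for all genes. Maob, the sister oxidase that prefers phenylethylamine, fell by 3.77 (SE 0.52, adjusted p = 2.19e-04) in single-cultured, by 3.95 in co-cultured cells and by 5.00 in b.End5, from a non-cultured mean of 9.28 ± 0.13 (SD, n = 3). Slc29a4, a low-affinity plasma membrane monoamine transporter, fell by 2.01, 2.08 and 2.72 in the same order. In b.End5, 2 of 3 arrays were at or under the no-target level for Slc29a4 and 1 of 3 for Maob. Gch1, which makes the first step of the cofactor for amine hydroxylases, fell by 1.65 and 1.28 in single-cultured and co-cultured cells from a non-cultured mean of 9.87, and its b.End5 mean was 9.72. It was called higher in b.End5 than in single-cultured cells (2.83-fold, adjusted p = 4.92e-04). It was also called higher than in co-cultured cells (1.13, adjusted p = 0.00376), but not without b.End5 replicate 2 (0.81) or co-cultured replicate 2 (0.99). Aoc3, a surface amine oxidase of vessels, was lower in b.End5 than in single-cultured (-1.60) and co-cultured cells (-1.89).

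Car4 was the largest fall of the surface enzymes. Carbonic anhydrase 4 sits on the luminal face of capillaries on a lipid anchor and interconverts carbon dioxide and bicarbonate. Its values were 13.5, 13.4 and 13.5 in non-cultured cells, 5.999, 6.56 and 5.82 in single-cultured cells, 6.44, 7.87 and 8.43 in co-cultured cells, and 5.03, 5.27 and 5.16 in b.End5. All non-cultured arrays were far above the rest, and co-cultured replicate 1 lay inside the single-cultured range. Car4 fell by 7.33 in single-cultured cells (SE 0.39, adjusted p = 1.06e-07), by 5.88 in co-cultured cells (adjusted p = 4.85e-07) and by 8.31 in b.End5 (adjusted p = 1.26e-08). On the linear scale these are 161-fold, 58.8-fold and 317-fold.

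Between co-cultured and single-cultured cells 0 of the 9 enzymes were called by limma, with 3 at an unadjusted p under 0.05, where 1.19% of all genes were called, 0.901% higher and 0.289% lower. Car4 had the largest difference of the 9 there, 1.45 higher with glia (95% interval 0.60 to 2.31, adjusted p = 0.0873). With the replicate number as a block shared by the single-cultured and co-cultured arrays, the same difference was called (SE 0.31, adjusted p = 0.0429). It was also called without co-cultured replicate 1 (2.02, adjusted p = 0.00305). Arrays of these groups did not overlap for 2 of the 9, Maoa and Ace, and for 19.9% of all genes. Car4 was called lower in b.End5 than in co-cultured cells (-2.43, adjusted p = 6.28e-04), while the difference from single-cultured cells did not pass (-0.98, 95% interval -1.83 to -0.12, adjusted p = 0.0815).

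**Figure D2:**
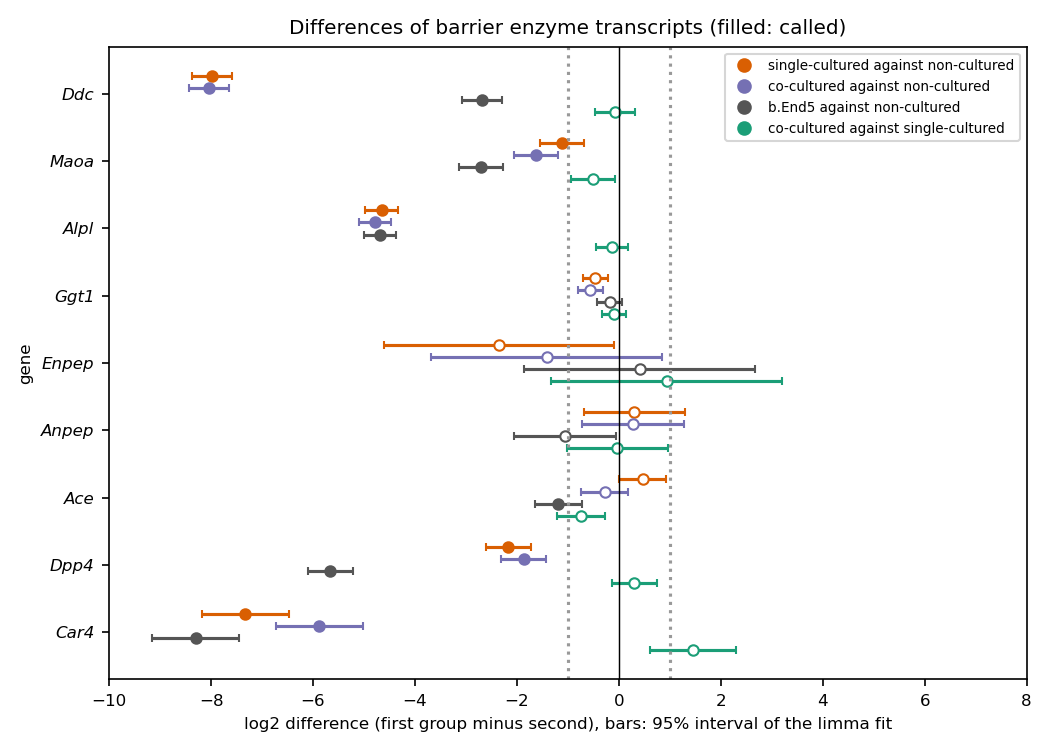
Log2 difference (horizontal axis, first group minus second) of each enzyme transcript (vertical axis) in 4 comparisons, with the 95% interval of the limma fit. Filled points passed the test and dotted lines mark the 2-fold minimum. Ddc, Maoa, Alpl, Dpp4 and Car4 are filled on the left in all 3 comparisons with non-cultured cells, the 2 Ddc values of cultured cells being from levels at or under no target, and no point of the co-culture comparison is filled.

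The summed level of pericyte markers is given beside Car4. The log2 of the summed level of 12 pericyte markers was 12.2 to 12.5 on the non-cultured arrays, 9.62 to 10.5 on the single-cultured, 10.9 to 11.9 on the co-cultured and 8.38 to 10.1 on the b.End5 arrays. Of the 12, 6 fell and 0 rose in single-cultured cells, and 5 fell and 2 rose in co-cultured cells, against non-cultured cells. In b.End5 7 fell and 0 rose. Of all genes 5.82%, 6.20% and 9.06% were called lower and 7.18%, 9.10% and 9.10% higher, in the same order. Between co-cultured and single-cultured cells 1 of the 12, Rgs5, was called higher and 0 lower, against 0.901% and 0.289% of all genes. Rgs5 and Vtn, defining pericyte genes, had means of 11.1 and 10.6 in non-cultured cells, 5.27 and 6.62 in single-cultured and 6.80 and 8.03 in co-cultured cells. Other pericyte genes did not follow this order: Pdgfrb had means of 8.39, 8.48 and 9.64 and Kcnj8 of 8.07, 5.15 and 8.82 in the same sources. Cspg4 and Des, at 6.95 and 6.07 in non-cultured cells, rose to 8.13 and 7.43 in co-cultured cells. In b.End5 Rgs5 was at or under the no-target level on all 3 arrays and Vtn on 2 of them. Within the co-cultured group, replicate 1 had the lowest Car4 and the lowest pericyte sum, but Car4 was highest on replicate 3 and the sum on replicate 2. In single-cultured cells both were highest on replicate 2. In non-cultured cells Car4 was highest on replicate 1 and the sum on replicate 3. In b.End5 Car4 was highest on replicate 2, at 5.27, where the sum was lowest, at 8.38. The part of pericyte RNA in the Car4 result was not tested.

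**Figure D3:**
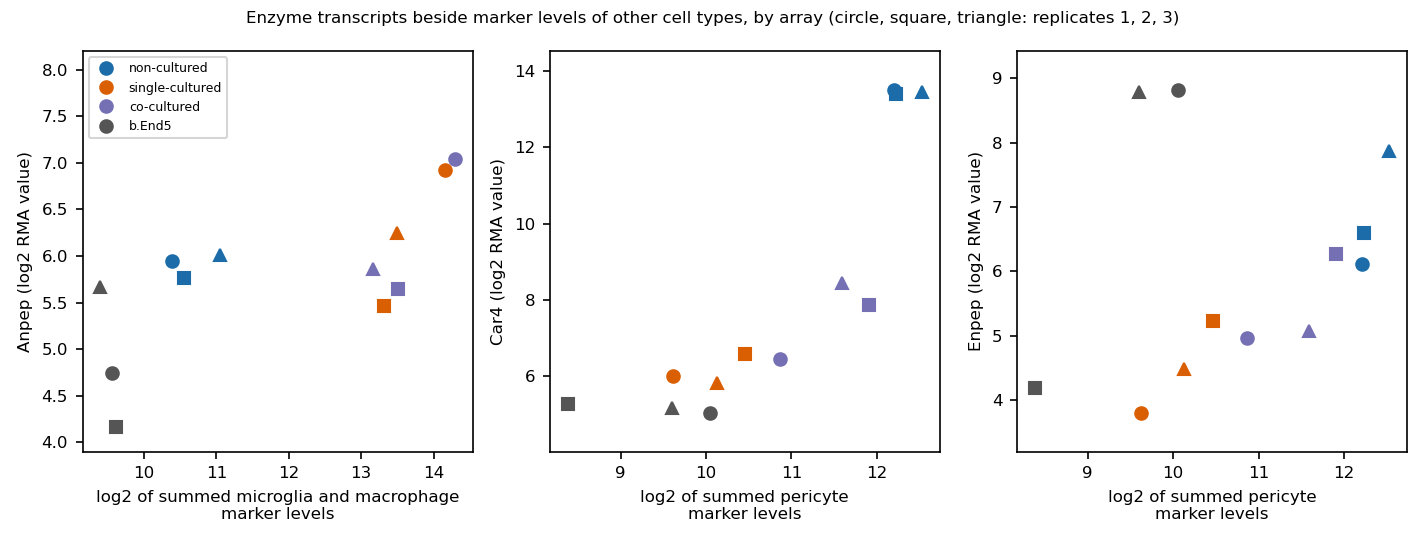
Log2 RMA value of Anpep, Car4 and Enpep (vertical axes) against the log2 of the summed levels of 11 microglia and macrophage markers or 12 pericyte markers (horizontal axes), 1 point per array. Anpep was highest on replicate 1 of both primary cultures, the arrays with the largest macrophage sums, 14.2 and 14.3. Car4 was 13.4 or more on the 3 arrays with the largest pericyte sums, and within b.End5 both Enpep and the pericyte sum were lowest on replicate 2.

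The carbonic anhydrase family did not move as 1 block. Of 15 other family members, 1 rose and 3 fell in single-cultured cells, 2 rose and 3 fell in co-cultured cells, and 3 rose and 2 fell in b.End5, against non-cultured cells, with list medians of -0.03, -0.17 and 0.15. That is 26.7%, 33.3% and 33.3% of the list, against 13.0%, 15.3% and 18.2% of all genes. Between co-cultured and single-cultured cells limma called 0 of the 15, with 2 at an unadjusted p under 0.05. Car14, another membrane-bound form with an extracellular active site, fell by 1.18, 1.37 and 1.73 in single-cultured, co-cultured and b.End5 cells, from a mean of 9.84. The mitochondrial form Car5a fell by 2.47, 2.56 and 2.83, with 1 of 3 b.End5 arrays at or under the no-target level. The cytosolic form Car13 went the other way: it was at or under the no-target level on all non-cultured arrays and at least 3.49-fold, 5.72-fold and 13.6-fold higher in the same order. The other mitochondrial form, Car5b, was called lower in both primary cultures, close to the 2-fold minimum (-1.03 and -1.01), and higher in b.End5 (1.76), and the hypoxia-induced Car9 rose in co-cultured against non-cultured cells (1.62, adjusted p = 0.00416), where single-cultured cells and b.End5 had differences of 0.80 and 0.94 that did not pass. The difference of Car9 between co-cultured and single-cultured cells did not pass (0.82, adjusted p = 0.332).

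Alpl, tissue-nonspecific alkaline phosphatase, fell in all 3 in vitro sources. This surface enzyme removes phosphate from nucleotides and other esters. Its values were 10.2, 10.4 and 10.6 in non-cultured cells, 5.88, 5.80 and 5.62 in single-cultured cells, 5.82, 5.51 and 5.57 in co-cultured cells, and 5.66, 5.63 and 5.93 in b.End5. The in vitro arrays lay within a narrow band above the no-target level and overlapped among themselves, while the non-cultured arrays stood apart. The falls were 4.66 (SE 0.14, adjusted p = 2.84e-09) in single-cultured cells, 4.79 (adjusted p = 1.26e-09) in co-cultured cells and 4.69 (adjusted p = 5.38e-10) in b.End5, or 25.2-fold, 27.7-fold and 25.7-fold. None of the 3 differences among the in vitro sources passed, and their 95% intervals were -0.45 to 0.18 (co-cultured minus single-cultured), -0.35 to 0.29 (b.End5 minus single-cultured) and -0.21 to 0.42 (b.End5 minus co-cultured).

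Other enzymes of extracellular nucleotides moved in both directions. Of 27 measured ectonucleotidases, phosphatases and adenosine genes, 6 rose and 1 fell in single-cultured cells, 6 rose and 2 fell in co-cultured cells, and 3 rose and 3 fell in b.End5, against non-cultured cells. In single-cultured cells that is 25.9% of the list, in co-cultured cells 29.6% and in b.End5 22.2%, against 13.0%, 15.3% and 18.2% of all genes. Over all genes rises also outnumbered falls in the primary cultures (7.18% and 5.82%, 9.10% and 6.20%). The co-cultured count of 8 became 4 with the dimmest 30% of genes left out. List medians were 0.09, 0.02 and -0.01. Ada, adenosine deaminase, rose by 2.81 (SE 0.43, adjusted p = 4.39e-04), 2.69 and 1.62 in the 3 sources. Entpd1 (CD39), which splits extracellular ATP and ADP, fell in both primary cultures (-1.57 and -1.63), and in b.End5 its mean of 10.2 was near the non-cultured mean of 10.4. Nt5e (CD73), which makes adenosine from AMP, rose by 2.57 in co-cultured cells, and was called higher there than in single-cultured cells (1.14, adjusted p = 0.00543), though not without co-cultured replicate 3 (0.96). Enpp2, autotaxin, which makes lysophosphatidic acid, had means of 10.8, 12.3 and 11.9 in non-cultured, single-cultured and co-cultured cells and fell by 6.81 in b.End5 against non-cultured cells (adjusted p = 2.21e-09), where 2 of 3 arrays were at or under the no-target level. Enpp3, which hydrolyses extracellular nucleotides, rose by 2.44 in single-cultured cells and was at least 20.9-fold lower in b.End5 than there.

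**Figure D4:**
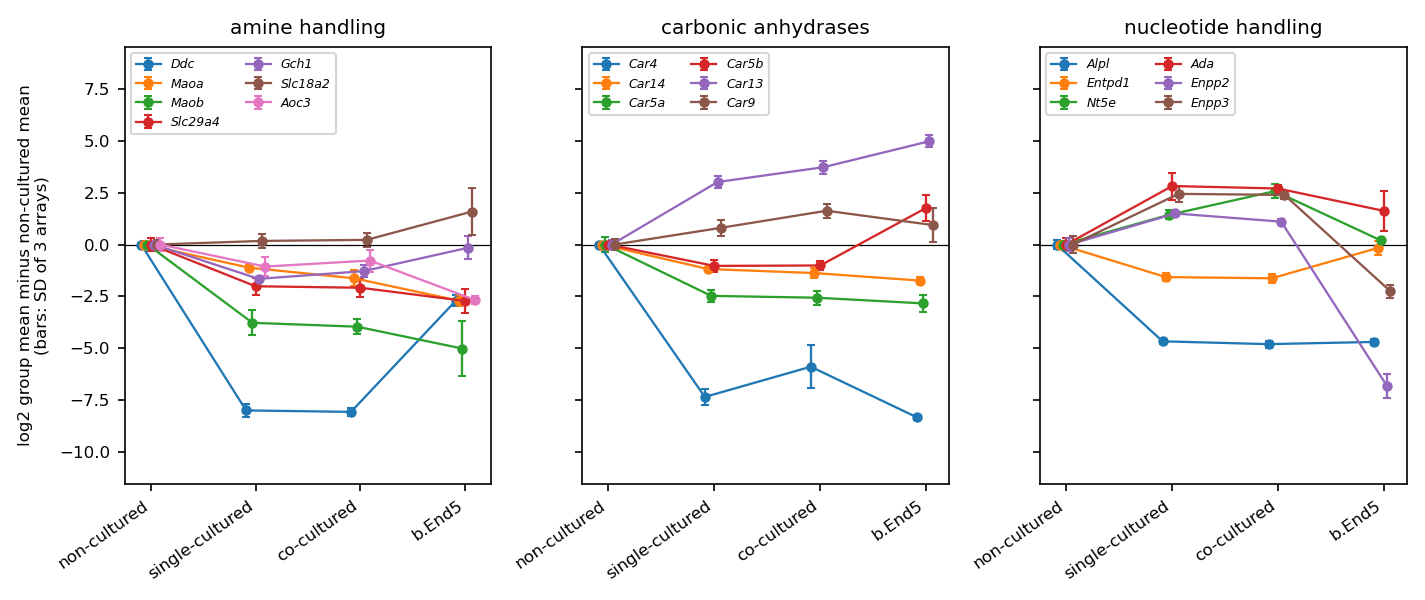
Group mean minus the non-cultured mean on the log2 scale (vertical axis) by source (horizontal axis) for genes of amine handling, carbonic anhydrases and nucleotide handling, with bars for the SD of 3 arrays. Ddc is lowest in both primary cultures and partly higher in b.End5, Car4 and Alpl are low in all 3 in vitro sources, and Car13 lies above 0 in each. Ddc in cultured cells and Car13 in non-cultured cells are at or under the no-target level, so those distances have no scale.

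Dpp4, which clips dipeptides from the amino end of peptides after proline or alanine, fell in the primary cultures and further in b.End5. Its values were 10.6, 10.7 and 10.6 in non-cultured cells, 8.56, 8.65 and 8.22 in single-cultured cells, 8.43, 8.70 and 9.21 in co-cultured cells, and 4.96, 5.28 and 4.73 in b.End5. The primary cultures overlapped with each other and lay between the non-cultured and the b.End5 arrays, which overlapped with nothing. Dpp4 fell by 2.17 (SE 0.20, adjusted p = 9.56e-06) in single-cultured cells, by 1.87 (adjusted p = 2.59e-05) in co-cultured cells and by 5.66 (adjusted p = 1.75e-09) in b.End5, a 50.5-fold difference. Between the primary cultures it did not pass (0.30, 95% interval -0.14 to 0.74), and b.End5 was lower than single-cultured cells by -3.49 and than co-cultured cells by -3.79 (adjusted p = 1.97e-07 and 1.05e-07). Fibroblasts also make Dpp4, and the summed log2 level of 12 fibroblast and meningeal markers was 11.5 to 12.3 in non-cultured, 10.96 to 11.6 in single-cultured, 11.8 to 13.7 in co-cultured and 8.39 to 8.85 in b.End5 cells. Of the 12, 1 rose and 0 fell in single-cultured cells, 5 rose and 1 fell in co-cultured cells and 0 rose and 4 fell in b.End5, against non-cultured cells. In the same order, 7.18%, 9.10% and 9.10% of all genes were called higher and 5.82%, 6.20% and 9.06% lower. The collagen genes Col1a1 and Col1a2 had means of 6.05 and 7.42 in non-cultured and of 10.2 and 11.3 in co-cultured cells. Mgp had a mean of 11.7 in non-cultured cells and was at or under the no-target level in b.End5, and Lum and Dpt were so in every source. The part of fibroblast RNA in the Dpp4 differences was not tested.

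Ace, the angiotensin-converting enzyme of vessel walls, fell in b.End5, and its differences between primary cultures and fresh cells did not pass. Its values were 7.58, 7.13 and 7.47 in non-cultured, 7.42, 7.87 and 8.29 in single-cultured, 6.83, 7.37 and 7.15 in co-cultured and 6.20, 6.22 and 6.20 in b.End5 cells. The primary cultures overlapped with the non-cultured arrays, and the b.End5 arrays lay below all others. Differences from non-cultured cells were 0.46 (95% interval 0.00 to 0.93, adjusted p = 0.134) in single-cultured and -0.28 (-0.74 to 0.19, adjusted p = 0.356) in co-cultured cells, neither passing, and Ace fell by 1.19 in b.End5 (SE 0.21, adjusted p = 8.37e-04). It was also called lower in b.End5 than in single-cultured cells (-1.65, adjusted p = 1.06e-04). Against co-cultured cells the difference was under 2-fold (-0.91, adjusted p = 0.00696), and it was called with cyclic loess (-1.02) or without co-cultured replicate 1 (-1.06). Ace arrays of single-cultured and co-cultured cells did not overlap, but their difference did not pass (-0.74, 95% interval -1.20 to -0.28, adjusted p = 0.116).

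In b.End5 4 of the 9 enzymes were called lower than in single-cultured cells (Dpp4, Ace, Maoa and Anpep), against 7.82% of all genes, which with Ddc makes 5 called in either direction, against 14.1%. Further, 4 were lower than in co-cultured cells (Dpp4, Car4, Anpep and Maoa), against 7.96%, and 5 in either direction, against 13.1%. Arrays did not overlap for 6 of the 9 in each comparison, and for 41.5% and 44.4% of all genes. Without b.End5 replicate 2, the numbers called in either direction for b.End5 were 7 against non-cultured, 5 against single-cultured and 4 against co-cultured cells. With all arrays they were 6, 5 and 5. The called genes also changed. Without b.End5 replicate 2, Enpep was called higher in b.End5 in each of these comparisons. Anpep then lost its call against both primary cultures, and Maoa lost its call against co-cultured cells.

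Enpep, aminopeptidase A, which turns angiotensin II into angiotensin III, depended on b.End5 replicate 2 in every comparison with b.End5. It read 8.82, 4.19 and 8.79 on the b.End5 arrays, the second at or under the no-target level. The non-cultured values were 6.12, 6.60 and 7.87, the single-cultured 3.80, 5.22 and 4.49, and the co-cultured 4.97, 6.28 and 5.08. Single-cultured arrays all lay below the non-cultured ones, single-cultured replicate 1 at or under the no-target level, while co-cultured replicate 2 reached into the non-cultured range. With all 12 arrays none of the 6 comparisons of Enpep passed, and the SE was 1.03 in each: the difference from non-cultured cells was -2.36 in single-cultured (adjusted p = 0.118), -1.42 in co-cultured (adjusted p = 0.33) and 0.41 in b.End5 cells (adjusted p = 0.8). Without b.End5 replicate 2 the first was called (adjusted p = 0.00289), the second was called (adjusted p = 0.0376), and b.End5 was called higher than non-cultured cells by 1.94 (adjusted p = 0.0139). On the same arrays b.End5 was also called higher than single-cultured cells by 4.30 (adjusted p = 9.73e-05) and than co-cultured cells by 3.36 (adjusted p = 6.36e-04). The pericyte sum was 10.1, 8.38 and 9.60 on the b.End5 arrays and lower than on every non-cultured array. Within b.End5 it was lowest on replicate 2, where Enpep was lowest too. Kcnj8 had the highest b.End5 mean of the 12 pericyte markers, 7.50, and ranged from 4.50 to 9.36 over these arrays. Rgs5, Notch3 and Atp13a5 were at or under the no-target level on all 3 of them. Within the non-cultured arrays replicate 3 had both the highest Enpep and the highest pericyte sum, 12.5 against 12.2 and 12.2. The part of pericyte RNA in the Enpep values was not tested.

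Anpep, aminopeptidase N, which trims neutral amino acids from peptides, had no call against non-cultured cells, and its calls in b.End5 against the primary cultures depended on single arrays. Its values were 5.95, 5.76 and 6.01 in non-cultured, 6.93, 5.46 and 6.25 in single-cultured, 7.05, 5.65 and 5.86 in co-cultured and 4.74, 4.17 and 5.67 in b.End5 cells. The primary cultures spread around the tight non-cultured values, and b.End5 replicate 2 was at or under the no-target level. The differences from non-cultured cells were 0.31 (95% interval -0.69 to 1.30) in single-cultured, 0.28 (-0.72 to 1.27) in co-cultured and -1.05 (-2.05 to -0.05, adjusted p = 0.0932) in b.End5 cells, none passing. The last was called with the replicate number as a block over all 4 groups (adjusted p = 0.0414) or shared by the primary cultures (adjusted p = 0.026). Anpep was called lower in b.End5 than in single-cultured (-1.36, adjusted p = 0.0424) and co-cultured cells (-1.33, adjusted p = 0.0459), although arrays overlapped in both. The call against single-cultured cells ended without any 1 of the 3 non-cultured arrays, single-cultured replicate 1 or 3, or b.End5 replicate 1 or 2 (adjusted p = 0.0578 to 0.161). The call against co-cultured cells ended without any 1 of the 3 non-cultured arrays, single-cultured replicate 3, co-cultured replicate 1 or 3, or b.End5 replicate 1 or 2 (adjusted p = 0.0585 to 0.167).

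Myeloid markers were highest on the same arrays as Anpep within the primary cultures. The summed log2 level of 11 microglia and macrophage markers was 14.2, 13.3 and 13.5 on single-cultured replicates 1, 2 and 3 and 14.3, 13.5 and 13.2 on the co-cultured ones, against 10.4 to 11.04 on non-cultured and 9.40 to 9.61 on b.End5 arrays. Lyz2, lysozyme, had means of 9.74, 13.2 and 13.1 in non-cultured, single-cultured and co-cultured cells, and Itgam was at or under the no-target level on all non-cultured arrays and on 2 of 3 arrays of each primary culture. Of the 11, 4 rose and 0 fell in single-cultured and 6 rose and 0 fell in co-cultured cells, against non-cultured cells, where 7.18% and 9.10% of all genes rose. Co-cultured replicates 2 and 3 went in opposite order, with Anpep at 5.65 and 5.86 and the myeloid sum at 13.5 and 13.2. The pericyte sum was lowest on replicate 1 of each primary culture, at 9.62 and 10.9. The parts of myeloid and pericyte RNA in the Anpep values were not tested.

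Few of the other peptidases and angiotensin genes changed. Of 34 measured, 1 rose and 2 fell in single-cultured cells, 1 rose and 2 fell in co-cultured cells, and 3 rose and 2 fell in b.End5, against non-cultured cells, with list medians of -0.03, -0.08 and 0.07. That is 8.82%, 8.82% and 14.7% of the list, against 13.0%, 15.3% and 18.2% of all genes called in either direction. Nln, neurolysin, an intracellular peptidase of neurotensin and related peptides, was the 1 rise in both primary cultures (2.72 and 2.59) and rose by 3.58 in b.End5. Ece1, endothelin-converting enzyme, fell in b.End5 (-1.29, adjusted p = 4.19e-05), and its profile was among the 3 most like that of Ace.

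Ggt1, gamma-glutamyl transferase, which starts the breakdown of extracellular glutathione, passed the 2-fold minimum in no comparison. Its values were 6.67, 6.82 and 6.63 in non-cultured, 6.14, 6.31 and 6.28 in single-cultured, 6.06, 6.29 and 6.10 in co-cultured and 6.62, 6.47 and 6.48 in b.End5 cells. Arrays of the non-cultured cells lay above all others, and the primary cultures overlapped with each other. The differences from non-cultured cells were -0.46 (SE 0.11, adjusted p = 0.00779) in single-cultured, -0.56 (adjusted p = 0.00206) in co-cultured and -0.18 (95% interval -0.42 to 0.06, adjusted p = 0.225) in b.End5 cells. The first 2, and the difference of b.End5 from co-cultured cells (0.37, adjusted p = 0.0237), had an adjusted p under 0.05 but stayed below 2-fold, so Ggt1 was called in 0 of 6 comparisons. By order the means were 6.71 in non-cultured, 6.52 in b.End5, 6.24 in single-cultured and 6.15 in co-cultured cells. No neighbours in that order passed.

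Around Ggt1, genes of glutathione and gamma-glutamyl metabolism moved in both directions. Of 25 measured, 5 rose and 2 fell in single-cultured cells, 3 rose and 3 fell in co-cultured cells, and 3 rose and 4 fell in b.End5, against non-cultured cells, with list medians of -0.02, -0.08 and 0.12. That is 28.0%, 24.0% and 28.0% of the list, against 13.0%, 15.3% and 18.2% of all genes. Abcc1, an exporter of glutathione and its conjugates, rose by 2.58, 2.61 and 1.85. The glutathione transferase Gstm1 fell in co-cultured cells (-1.54, adjusted p = 9.26e-05) and in b.End5 (-3.48), and was lower in co-cultured than in single-cultured cells (-1.44, adjusted p = 0.0033). The secreted glutathione peroxidase Gpx3 was higher with co-culture, by 3.12 against non-cultured and by 1.73 against single-cultured cells (adjusted p = 0.00325). Gsta4, a transferase for lipid aldehydes, fell by 7.25 in b.End5 (adjusted p = 2.15e-07). Its smaller falls in single-cultured and co-cultured cells (-1.46 and -1.54) lost their calls without any 1 non-cultured array, and in further cases.

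Likeness of profiles was measured as the root mean square distance, in log2 units over the 12 arrays, between profiles that were each centred on their own mean. It is a description over arrays that share sources, and genes are named from the 3 nearest of the 15203 others for each enzyme. The 3 nearest to Car4 were Mfsd2a, a lipid transporter of brain endothelium (0.66), the pericyte gene Rgs5 (0.72) and the organic anion transporter Slc22a8 (0.79). For Alpl they were Edn3, an endothelin (0.24), the embryonic globin Hbb-y (0.29) and Notum, a secreted inhibitor of Wnt proteins (0.31). Erythrocyte markers were also higher in non-cultured cells, with a summed log2 level of 4 markers of 9.27 to 9.84 there against 6.25 to 7.23 elsewhere, and their part in the Alpl result was not tested. For Ddc the nearest profiles were farther away: the flow-responsive factor Klf2 (1.36), the small GTPase Gem (1.43) and Klf4 (1.51). These distances include the Ddc values of both primary cultures, which lay at or under the no-target level and have no scale. Maoa was close to the endothelial phosphatase Ptprb (0.16), the hypoxia factor Epas1 (0.25) and Utp14b (0.26). Dpp4 was nearest to Eps8 (0.30), Htra3 (0.35) and Tmc7 (0.37), and Ace to Galnt10 (0.21), C1qtnf7 (0.24) and Ece1 (0.25). Enpep was nearest to the interferon-induced genes Zbp1 (0.78) and Ifi44 (0.79) and to Cttnbp2 (0.85), and the profiles near that of Anpep included Sbsn (0.35) and the myeloid gene Fgr (0.38). Ggt1, which varied little, was nearest to Sema6c (0.08), Plekhf2 (0.09) and Atg12 (0.10). Among the 9 themselves the closest profiles were those of Anpep and Ace, at 0.72.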

How the data were processed

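Per the submitters' processing notes, the deposited log2 values were made by the authors with RMA, a method with background correction, quantile normalisation and a summary per probe set. For its version, the probe-set definition and the genome build, the sources used here give nothing, and scanner files were not used here. Rows carry RefSeq accessions, of which 16537 of 21561 matched 1 symbol in the RefSeq table of GRCm38.p6 and 5024 none. The row with the highest mean stood for a gene. No gene was filtered. The 12 arrays were fitted with limma 3.58.1 (R 4.3.3) as 4 group means with 8 residual degrees of freedom, and p-values were adjusted by Benjamini-Hochberg over 15204 genes in each of 6 comparisons. SE is limma's moderated standard error. A gene at or under the no-target level on all arrays of 1 group has a fold given as a bound, and no fold where both groups lay there. The fit was tested on simulated data. The number of arrays limits the precision. Python 3.11.15 made tables and figures.

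The enzymes, lists and rules were chosen with earlier results of these data known. Named genes are all 9 enzymes, up to 2 called rises and 2 called falls per related list and comparison, and the 3 nearest profiles, some of which are not reported here. Genes named outside this rule, such as Gch1, Aoc3, Car5b and Entpd1 in some comparisons and the single markers, were chosen after their values were seen. With group means removed, single-cultured and co-cultured arrays of the same number correlated at 0.227, 0.135 and 0.232, so a shared block was tried for them. No other pair of groups had all 3 above 0.1. The labels do not state a pairing. Alternatives were median and housekeeping centring, cyclic loess, omission of dim genes, the mean of a gene's rows, an intensity trend with robust prior, the compared groups alone, replicate blocks, no minimum fold, and leaving out each array.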

Additional observations from a re-analysis of the deposited data

How the results depend on the processing

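The counts of enzymes called stayed within 1.5 times under each alternative, except between co-cultured and single-cultured cells, where 0 became 1 (Car4) with the replicate block shared by those arrays and 0 to 1 when 1 array was left out. The replicate block changed no other enzyme call than this and that of Anpep between b.End5 and non-cultured cells. Counts over all genes with 1 array left out ran from 118 (without single-cultured replicate 1) to 231 in that comparison, against 181. With no minimum fold they rose to 4294, 5224 and 5774 for single-cultured, co-cultured and b.End5 against non-cultured cells (from 1976, 2326 and 2761), to 383 for co-cultured against single-cultured (from 181), and to 4591 and 4698 for b.End5 against single-cultured and co-cultured cells (from 2139 and 1986), since a criterion was dropped. With no minimum fold, 6 of the 9 enzymes passed in each primary culture against non-cultured cells, against 5. Centring on the array median moved the median of all genes from -0.04 to -0.19 between co-cultured and non-cultured cells, and the split of calls from 1384 higher and 942 lower to 1166 and 1213. Between co-cultured and single-cultured cells that split moved from 137 and 44 to 107 and 60.

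Signs turned only in differences that were not called. Anpep between co-cultured and single-cultured cells was 0.0143 with cyclic loess (-0.03 as reported) and -0.46 to 0.33 with 1 array left out. Alpl was 0.0091 between b.End5 and single-cultured cells with housekeeping centring (8 of 14 genes found) and -0.12 to 0.0297 with 1 array left out, and -0.0115 between b.End5 and co-cultured cells with cyclic loess. With 1 array left out, Anpep ran from -0.0515 to 0.68 and from -0.16 to 0.54 in single-cultured and co-cultured against non-cultured cells, Enpep from -0.37 to 1.94 in b.End5 against non-cultured cells, and Ddc from -0.25 to 0.0416 between the cultures, where it lay at or under the no-target level. The causes were not tested. The call of Anpep between b.End5 and co-cultured cells also ended with median centring (adjusted p = 0.0504), housekeeping centring (0.0528) or the 2 groups alone (0.0962), and that between b.End5 and single-cultured cells with the 2 groups alone (0.0835). Enpep was called in single-cultured against non-cultured cells with those 2 groups alone (adjusted p = 0.00569). For the related lists 32 counts moved by over 1.5 times, most with no minimum fold, such as ectopeptidases in co-cultured against non-cultured cells from 3 to 10, or 5 with median centring. With the dimmest 30% of genes left out, ectonucleotidase calls there went from 8 to 4 and ectopeptidase calls in single-cultured cells from 3 to 1, since fewer genes were tested. Without co-cultured replicate 2, amine genes called in co-cultured against non-cultured cells went from 4 to 7.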
